A study of Homo sapiens with 8 samples.

Results

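The 5 subunits of NF-κB (NFKB1, NFKB2, REL, RELA and RELB) and 5 genes of IκB proteins and other regulators grouped as its inhibitors (NFKBIA, NFKBIB, NFKBIE, BCL3 and TNFAIP3) were examined in human neuroblastoma cells exposed to media conditioned by embryonic ganglia. These 10 genes were taken by symbol from the 60676 Ensembl genes of the count table. The list was chosen by name and function, and selected on earlier results of the same counts, namely the read counts and fold changes against control given here. The values of the 10 genes are therefore given as a description: no p is printed for them, and the label "called", defined further on, only marks members past the limits used for every gene.

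IGR-N91, an established neuroblastoma cell line, was grown as aggregates in hanging drops. The 8 RNA-seq libraries form 4 groups of 2. The control group received medium in which no tissue had been cultured. The headers of both control columns carry the tag E8, as those of the chick media do, and no control carries a tag of E15.5. What the tag means for a control is not given. E8-cGScm and E8-cDRGcm were conditioned by sympathetic ganglia (GS) and by dorsal root ganglia (DRG) of chick embryos at embryonic day 8, and E15.5-mGScm by sympathetic ganglia of mouse embryos at E15.5. Aggregates were retrieved after 20 h according to the protocol in the labels, whereas the design text gives 24 h. The labels record no genetic change or drug in any group, and they do not say that the 2 libraries of a group came from separate cultures, so p-values measure the spread between these libraries, which may be technical. E15.5-mGScm differs from E8-cGScm in both species and stage, which cannot be told apart. A single cell line was used.

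The libraries held 7930765 to 15060744 counts on genes, and both E15.5-mGScm libraries were the smallest. A count of 3, taken as the detection floor, corresponded to 0.199 to 0.378 CPM (read counts scaled to library size by TMM). Of 9 neuroblastoma markers, 8 were above the floor in every library, and only CHGA had 0 reads. CHGA lies in a stretch of adjacent protein-coding genes without reads, as NFKBIB does further on, so its level could not be read. The summed level of the 9 markers was 6974 to 7124 CPM in control, 5306 to 5634 CPM in E8-cGScm, 4321 to 4390 CPM in E8-cDRGcm and 4240 to 4399 CPM in E15.5-mGScm. MYCN made up the largest part of it (4679 and 4610 CPM in control), and single markers did not all follow the sum. HAND2 overlapped its control level in both chick media. The only marker above control in E15.5-mGScm was DBH, at 48.4 and 55.2 CPM compared with 37.85 and 37.15 CPM in control. The 6 immune cell markers summed to at most 1.15 CPM in any library, with CD3E at 0. Of the 4 endothelial markers, 3 were found in the count table and summed to at most 1.61 CPM, with CDH5 at 0. The 4 Schwann cell markers summed to at most 1.04 CPM with SOX10 at 0. The 4 fibroblast markers summed to 350.0 to 417 CPM over all libraries, and among them DCN was at 2.75 and 2.76 CPM in control and at 13.7 and 13.5 CPM in E15.5-mGScm, whereas COL1A1 was at 99.1 and 113 CPM in control and at 31.9 and 28.5 CPM in E15.5-mGScm. The part of these markers in the values of the 10 genes was not tested. In such bulk libraries, fewer cells that express a gene and less RNA per cell cannot be told apart.

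NF-κB proteins bind DNA as dimers. In resting cells, IκB proteins such as IκBα, the product of NFKBIA, hold dimers of RELA, REL and p50 (made from the NFKB1 precursor) in the cytoplasm until IκB kinase marks the IκB for destruction. In a second branch, the NFKB2 precursor is cut to p52, which pairs with RELB. Several of the genes that encode subunits and inhibitors are themselves NF-κB targets, with binding sites known as κB sites in their promoters.

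The promoters of these genes are shown first because the κB consensus can be read in them directly. Windows from 250 bases before to 50 bases after each annotated start were taken from RefSeq on GRCh38.p14. They were available for 8 of the 10 genes and searched on both strands for the κB consensus of 10 bases. RELB and NFKBIE had no window. The stretches below are written 5′ to 3′ on the strand of the gene. Each lies before an annotated start, which in REL, NFKB1 and NFKBIA is the outermost start of the gene. Those of NFKB2 and TNFAIP3 lie before a later start, within the span of the gene, and are shown with 4 bases on each side. Capitals mark the matches.
REL (chr2:60881502-60881562, plus strand): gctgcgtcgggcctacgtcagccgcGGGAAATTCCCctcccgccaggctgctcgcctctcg
NFKB1 (chr4:102501285-102501344, plus strand): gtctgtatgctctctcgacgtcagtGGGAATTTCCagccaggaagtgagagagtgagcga
NFKB2, site 1 (chr10:102394467-102394485, plus strand): tcatGGGAATTCCCCcctc
NFKB2, site 2 (chr10:102394496-102394513, plus strand): agaaGGGGCTTTCCcggc
NFKBIA (chr14:35404796-35404855, minus strand): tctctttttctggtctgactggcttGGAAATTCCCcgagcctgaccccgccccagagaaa
TNFAIP3, site 1 (chr6:137867188-137867205, plus strand): ctttGGAAAGTCCCgtgg
TNFAIP3, site 2 (chr6:137867200-137867217, plus strand): ccgtGGAAATCCCCgggc

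In REL and at site 1 of NFKB2, 2 matches overlapped by all but 1 base, so their 11 capitals hold a match on each strand. NFKB2 had further matches before its last annotated start (chr10:102395525-102395542 and chr10:102395680-102395697), and its window at the outermost start held none. NFKBIB had overlapping matches (chr19:38899937-38899955). The match of BCL3 lay just after an annotated start. Neither window of RELA held a match. A match was thus present in 7 of the 8 genes with a window (87.5%), compared with 1937 of 27305 genes with a window overall (7.09%). Of the 27 NF-κB target genes with a window from the list described further on, 16 held one (59.3%). Among the 14 other IκB proteins and inhibitors with a window, also listed there, 5 held one (35.7%). Counted by window, 8 of the 13 windows of members held a match (61.5%), compared with 2075 of 35116 windows overall (5.91%). These lists hold genes known for κB sites, and a match is a description of the letters in the window, not of binding.

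Among the subunits, NFKB2 differed from control in all 3 media. It was at 19.3 and 20.1 CPM in control, 37.8 and 36.5 CPM in E8-cGScm, 63.9 and 62.9 CPM in E8-cDRGcm, and 73.8 and 92.2 CPM in E15.5-mGScm. No library of one group overlapped those of another, and the order of the groups was control, E8-cGScm, E8-cDRGcm, E15.5-mGScm. The log2 fold change against control was 0.91 (SE 0.10) in E8-cGScm, 1.69 (SE 0.09) in E8-cDRGcm and 2.08 (SE 0.09) in E15.5-mGScm, or 1.88-, 3.22- and 4.23-fold. E15.5-mGScm exceeded E8-cDRGcm by 0.39 on the log2 scale, with a 95% interval of 0.23 to 0.55.

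RELB, the usual partner of p52, was at 7.26 and 7.76 CPM in control and at 7.62 and 6.79 CPM in E8-cGScm, so these groups overlapped. Its level was 12.9 and 14.5 CPM in E8-cDRGcm and 25.7 and 29.5 CPM in E15.5-mGScm, both apart from control. The log2 fold change against control was -0.07 (SE 0.16) in E8-cGScm, 0.87 (SE 0.14) in E8-cDRGcm and 1.88 (SE 0.13) in E15.5-mGScm. RELB thus overlapped its control level in the chick sympathetic medium, in which NFKB2 was 1.88-fold higher.

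NFKB1 had a different profile. Its level was 47.1 and 49.7 CPM in control, 28.9 and 34.0 CPM in E8-cGScm, 33.3 and 37.4 CPM in E8-cDRGcm, and 107 and 106.5 CPM in E15.5-mGScm. Both chick media lay below control and overlapped each other, whereas the mouse medium lay above every other library. The log2 fold change against control was -0.62 (SE 0.08) in E8-cGScm, -0.46 (SE 0.08) in E8-cDRGcm and 1.14 (SE 0.07) in E15.5-mGScm. The difference in E8-cGScm sat close to the 1.5-fold limit used for a call, and without control replicate 2 (-0.58), without E8-cGScm replicate 1 (-0.51), or after thinning all libraries to 7930765 counts (-0.53) it no longer passed it.

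REL, the subunit best known from lymphocytes, was at 19.5 and 21.2 CPM in control, 24.7 in both E8-cGScm libraries, 29.2 and 24.0 CPM in E8-cDRGcm, and 54.8 and 58.5 CPM in E15.5-mGScm. All libraries in conditioned media lay above control, and those of the 2 chick media overlapped. The log2 fold change against control was 0.28 (SE 0.10), 0.38 (SE 0.10) and 1.48 (SE 0.10) in E8-cGScm, E8-cDRGcm and E15.5-mGScm. A lncRNA on the same strand overlaps REL by 5702 bases, and it had 0 reads.

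RELA, the subunit with the main activation domain of the canonical dimer, varied least among the members with reads in every library. It was at 54.2 and 56.3 CPM in control, 55.1 and 57.7 CPM in E8-cGScm, 57.8 and 57.9 CPM in E8-cDRGcm, and 59.3 and 60.5 CPM in E15.5-mGScm. The log2 fold change in E15.5-mGScm was 0.12, with a 95% interval of -0.03 to 0.26. In E8-cGScm and E8-cDRGcm it was 0.03 (-0.11 to 0.17) and 0.07 (-0.07 to 0.20). A divergent transcript, RELA-DT, shares 103 bases with RELA on the opposite strand and had 183 reads over all libraries. The strand setting of the counting is not given in the sources used here, so a few reads could belong to either.

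**Figure D1:**
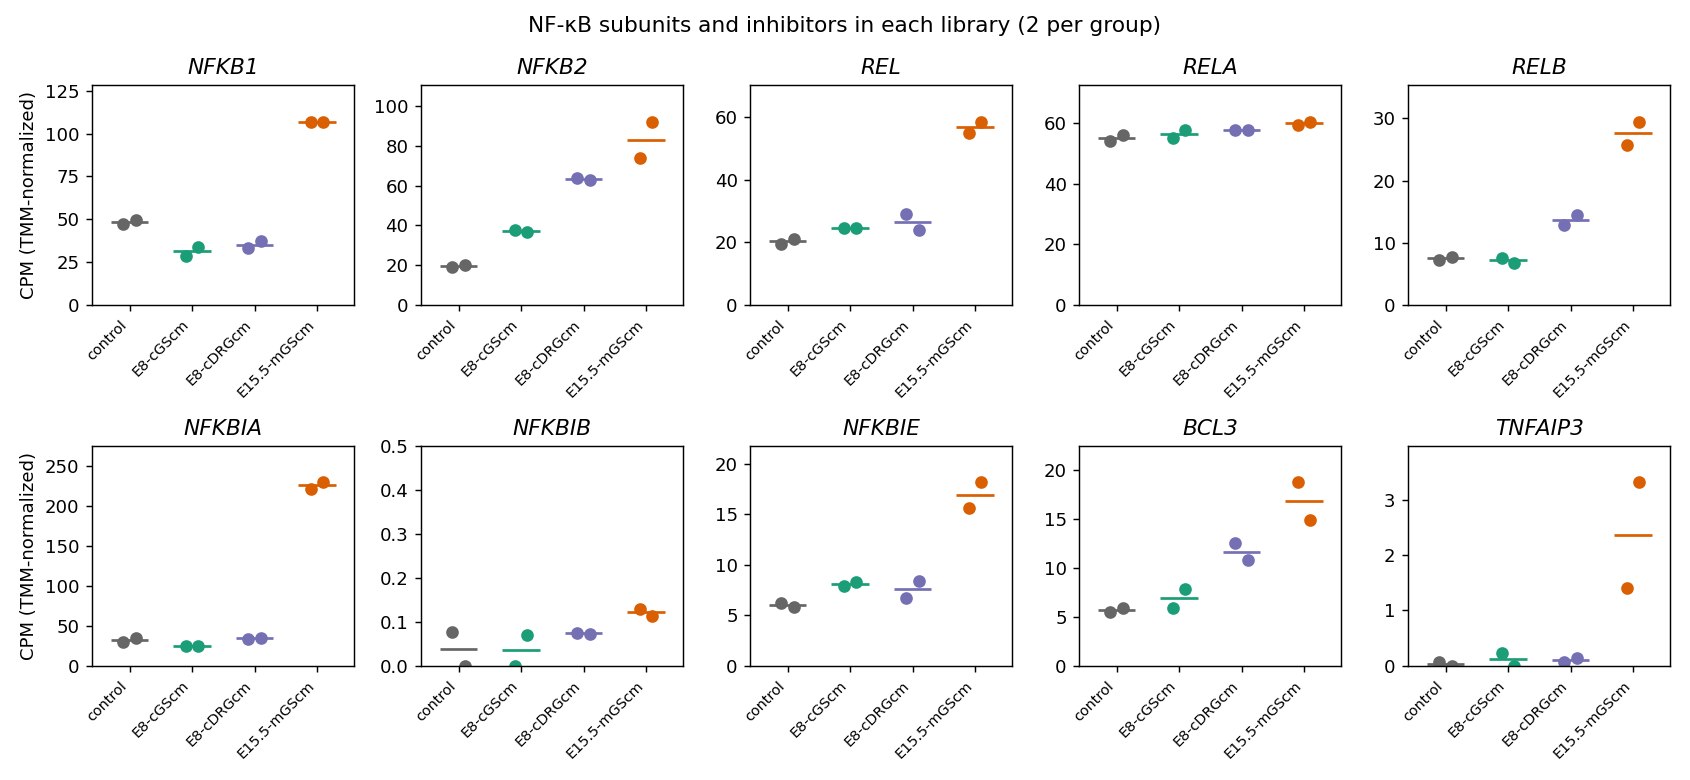
TMM-normalized CPM of the 10 genes in each of the 8 libraries (points), by group, with the mean of the 2 libraries of a group (lines). Each panel has its own linear axis from 0. NFKBIA is at 221 and 229 CPM in E15.5-mGScm and at most 35.2 CPM elsewhere, RELA stays between 54.2 and 60.5 CPM, and NFKBIB has at most 1 read in any library.

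NFKBIA was the gene that differed most among the inhibitors with reads in every library. It was at 29.5 and 34.7 CPM in control, 24.4 and 24.2 CPM in E8-cGScm, 33.1 and 35.2 CPM in E8-cDRGcm, and 221 and 229 CPM in E15.5-mGScm. The log2 fold change against control was 2.81 (SE 0.07) in E15.5-mGScm, or 6.99-fold, and all other libraries lay far below those of this group. In E8-cGScm both libraries lay below control, with a log2 fold change of -0.41 (SE 0.09) that did not reach 1.5-fold. In E8-cDRGcm the groups overlapped (0.08, SE 0.08).

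NFKBIE, which encodes IκBε, was at 6.19 and 5.79 CPM in control, 7.94 and 8.33 CPM in E8-cGScm, 6.73 and 8.42 CPM in E8-cDRGcm, and 15.6 and 18.2 CPM in E15.5-mGScm. The highest level was again in the mouse medium, with a log2 fold change of 1.5 (SE 0.16) against control. In the chick media it was 0.45 (SE 0.17) and 0.34 (SE 0.17), without a call.

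BCL3, an atypical nuclear IκB that binds homodimers of p50 or p52, was at 5.51 and 5.85 CPM in control, 5.93 and 7.84 CPM in E8-cGScm, 12.5 and 10.8 CPM in E8-cDRGcm, and 18.7 and 14.9 CPM in E15.5-mGScm. Its log2 fold change against control was 0.29 (SE 0.18), 1.03 (SE 0.16) and 1.55 (SE 0.17) in that order of media. BCL3, NFKB2 and RELB were the 3 members called higher in E8-cDRGcm than in control, and also the 3 called higher in E8-cDRGcm than in E8-cGScm. For BCL3 the latter difference was 0.74 (SE 0.16), and without E8-cGScm replicate 1 it was 0.57, below the limit.

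TNFAIP3, which encodes the ubiquitin-editing enzyme A20, was nearly without reads outside the mouse medium. It had 1 and 0 reads in control, 3 and 0 in E8-cGScm, 1 and 2 in E8-cDRGcm, and 11 and 29 in E15.5-mGScm. The 2 E15.5-mGScm libraries differed from each other, at 1.41 and 3.31 CPM, and both were above all others. The ratio of summed reads to control was 68.3, with an exact 95% interval of 11.6 to 2765 that covers counting error only. TNFAIP3 entered the fit only through the group in which it was high.

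NFKBIB, which encodes IκBβ, had 0 or 1 read in each library. Its level could not be read from these counts. On chromosome 19 it lies within a run of 16 adjacent protein-coding genes with at most 8 reads each over all libraries, 14 of them with 0, and these include ACTN4, HNRNPL and EIF3K, which most cells express. The genes on either side of the run, RYR1 and FBXO27, had 346 and 75 reads. Of 19052 protein-coding genes, 28.9% had at most 8 reads, and the other 9 members had at most 4 such genes among the 10 nearest. The cause of the gap was not tested.

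**Figure D2:**
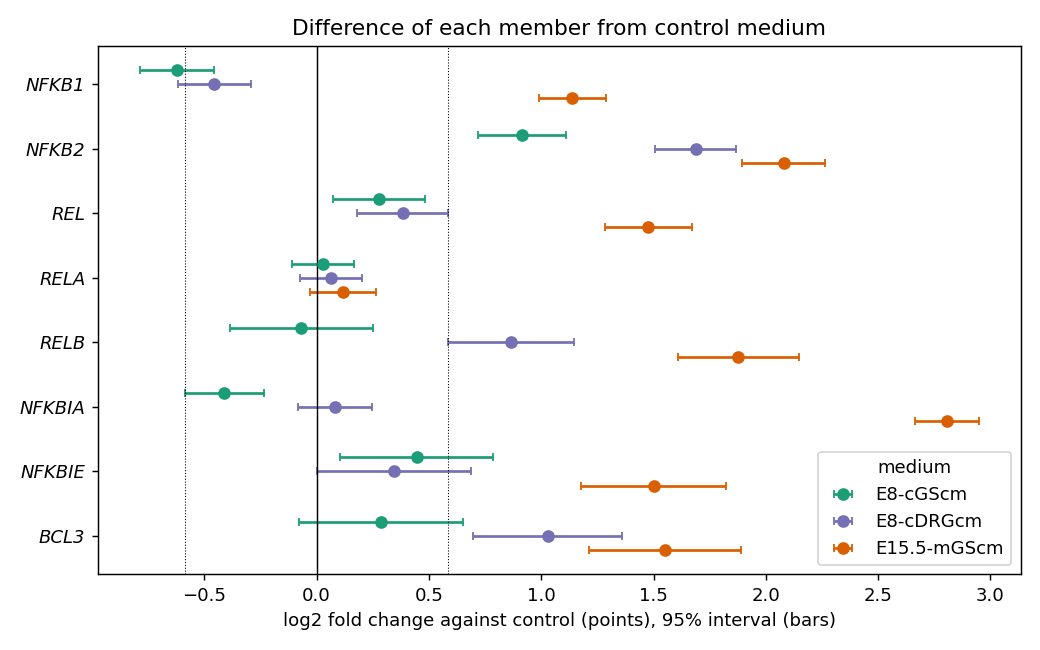
Log2 fold change against control (x axis) of 8 members in E8-cGScm, E8-cDRGcm and E15.5-mGScm, with 95% intervals as bars. Dotted lines mark 1.5-fold in each direction. All members but RELA lie to the right of the line in E15.5-mGScm, NFKB2 lies to its right in every medium, and NFKB1 lies left of 0 in both chick media. NFKBIB and TNFAIP3 are left out for their low reads.

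A gene was called when its adjusted p was under 0.05 (edgeR quasi-likelihood test, Benjamini-Hochberg over 16680 tested genes) and its fold change was at least 1.5. Of the 10 members, 9 passed the filter on low counts. In E8-cGScm, 1 member was called higher (NFKB2) and 1 lower (NFKB1) than control, against 4.73% and 3.86% of all tested genes. In E8-cDRGcm 3 were called higher and 0 lower, against 9.81% and 10.9% of all tested genes. In E15.5-mGScm 8 were called higher and 0 lower, with RELA not called, against 6.65% and 7.27%. Without TNFAIP3, which passed the filter only through these libraries, 7 of 8 were called higher. These shares stand beside the counts for scale, since the members were listed with such results known.

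Between the media, 3 members were called higher and 0 lower in E8-cDRGcm than in E8-cGScm, against 2.62% and 4.87% of all tested genes. In E15.5-mGScm 8 were called higher and 0 lower than in E8-cGScm, against 10.2% and 12.1%. Compared with E8-cDRGcm, 6 were called higher and 0 lower in E15.5-mGScm, against 13.1% in each direction. The 3 not called there were RELA, NFKB2 and BCL3, and for BCL3 the difference was 0.52 on the log2 scale (95% interval 0.22 to 0.82). The counts of 8 and 6 include TNFAIP3, which passed the filter only through the E15.5-mGScm libraries. Under a filter that removed TNFAIP3, 7 and 5 members were called higher. The 3 comparisons with control share its 2 libraries. After thinning every library to 7930765 counts, the 8 calls in E15.5-mGScm and the 3 in E8-cDRGcm against control were still made.

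Levels of different genes were compared per kilobase of annotated exons (RPKM). In control, RELA (10.1 RPKM) and NFKBIA (9.46 RPKM) came first with overlapping libraries. NFKB2 (3.52), NFKB1 (3.09), RELB (2.51), NFKBIE (2.32), BCL3 (1.84) and REL (1.19) followed. In E8-cGScm RELA (10.3) was ahead of NFKBIA (7.15) and NFKB2 (6.65). In E8-cDRGcm NFKB2 (11.4), RELA (10.6) and NFKBIA (10.1) were close together. In E15.5-mGScm NFKBIA (66.4) stood far above NFKB2 (14.9), RELA (11.0) and RELB (9.21), and NFKB1 (6.81) and NFKBIE (6.55) overlapped. The place of NFKB1 depends on the length used, because its annotated exons span 15679 bases and its canonical transcript only 4055. On the canonical length it had rank 3 in control and in E15.5-mGScm.

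The makeup of the subunit transcripts differed between groups. RELA made up 49.8% and 49.3% of the summed subunit level in control and 25.5% and 23.3% in E15.5-mGScm. NFKB2 made up 17.3% and 17.2% in control, 29.8% and 28.4% in E8-cGScm, 37.9% and 36.9% in E8-cDRGcm, and 30.9% and 34.7% in E15.5-mGScm. The share of NFKB1 was 15.1% and 15.2% in control, 7.03% and 7.82% in E8-cDRGcm, and 16.0% and 14.2% in E15.5-mGScm. On canonical lengths the mean share of RELA was 48.2% in control and 25.1% in E15.5-mGScm, and that of NFKB1 was 26.2% in control. The summed subunit level was 19.9 and 20.9 RPKM in control and 42.7 and 47.6 RPKM in E15.5-mGScm. The summed level of NFKBIA, NFKBIE, BCL3 and TNFAIP3 was 12.9 and 14.4 RPKM in control and 77.6 and 79.9 RPKM in E15.5-mGScm.

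**Figure D3:**
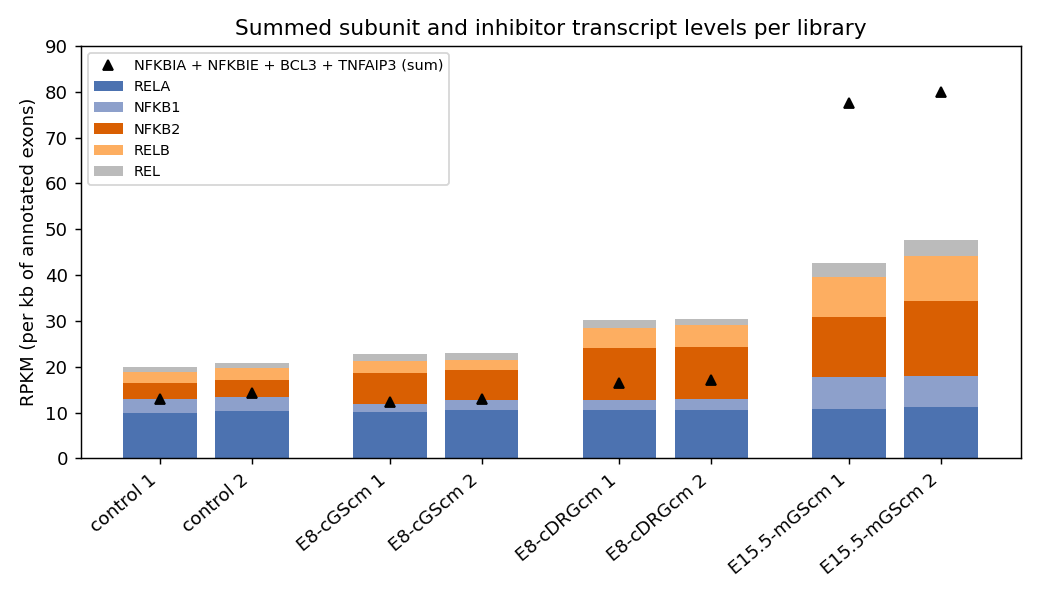
Stacked levels of the 5 subunits (bars) and summed level of 4 inhibitors (triangles) in each library, in RPKM on annotated exons. The RELA segment is of nearly equal height in all libraries, the NFKB2 segment is larger in every conditioned medium than in control, and the inhibitor sum exceeds the subunit sum only in E15.5-mGScm, at 77.6 and 79.9 RPKM.

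Ratios of reads within a library do not depend on the scaling between libraries. Relative to the mean of the control libraries, the ratio of NFKB2 to NFKB1 was 2.93 ± 0.41 (SD, n = 2) in E8-cGScm, 4.43 ± 0.42 in E8-cDRGcm and 1.91 ± 0.31 in E15.5-mGScm. The balance between the 2 precursor genes thus departed most from control in the chick dorsal root medium, although both genes were highest in the mouse medium. The ratio of NFKBIA to RELA was 0.742 ± 0.029, 1.02 ± 0.05 and 6.47 ± 0.06 in the same order. That of RELB to RELA was 0.942 ± 0.107, 1.75 ± 0.14 and 3.39 ± 0.27.

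Across the 8 libraries, the log2 CPM of NFKBIA and NFKB1 had a Pearson r of 0.96, NFKBIA and REL 0.95, and NFKB2 and BCL3 0.91, whereas NFKB1 and NFKB2 had 0.43. These values describe 4 groups of 2 libraries and are not tested. Of 14893 other genes, those most like NFKB2 over the 8 libraries were GEM (r = 0.995), CLASP2 (0.994), DYNLRB1 (0.985), TNFRSF10A (0.985) and KCNH8 (0.984). Those most like NFKBIA were SEMA3A (0.996), RUFY3 (0.994), MRPS6 (0.993), EPHA5 (0.993) and SNX27 (0.991).

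The rest of the pathway was followed in 6 lists with 116 genes, of which 73 were tested. Against control, 9 were called higher and 3 lower in E8-cGScm, 13 higher and 6 lower in E8-cDRGcm, and 22 higher and 1 lower in E15.5-mGScm. These counts correspond to 12.3% higher and 4.11% lower in E8-cGScm, 17.8% and 8.22% in E8-cDRGcm, and 30.1% and 1.37% in E15.5-mGScm, beside the shares of all tested genes given above for the members. The lower counts in both chick media were thus near or below those shares. Of the 73 genes, 7 passed the filter only through the E15.5-mGScm libraries, and of the other 66, 15 (22.7%) were called higher there. The median log2 fold change of these 66 was 0.09, 0.15 and 0.15 in E8-cGScm, E8-cDRGcm and E15.5-mGScm, beside 0.01, 0.01 and -0.02 for all tested genes. These lists were also drawn up with earlier results known. Below, adjusted p-values are from the same edgeR quasi-likelihood fit over all tested genes.

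Of 13 ligands, none passed the filter and 8 had 0 reads in every library. Among them TNF, LTA and LTB lie in a stretch in which all 10 nearest protein-coding genes had at most 8 reads, so their level could not be read, as for NFKBIB. For NFKBIL1, TAP1, PSMB9, IER3 and CCL5 too, all 10 nearest had at most 8 reads. Such neighbours alone do not tell a gap in the counts from absent expression.

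Of 18 receptors, 12 were tested. In E8-cGScm 6 were called higher, in E8-cDRGcm 6 higher, and in E15.5-mGScm 3 higher and 1 lower. The shares called higher were 50%, 50% and 25%, beside 4.73%, 9.81% and 6.65% of all tested genes. The median log2 fold change of the list was 0.57, 0.70 and -0.02. TNFRSF9, which encodes the costimulatory receptor 4-1BB, rose from 0.503 ± 0.154 CPM (SD, n = 2) in control to 2.45 ± 0.50 in E8-cGScm, 6.15 ± 0.82 in E8-cDRGcm and 61.4 ± 5.5 in E15.5-mGScm, with adjusted p-values of 9.52e-06, 1.14e-12 and 6.78e-26 in edgeR. NGFR, the low-affinity neurotrophin receptor, went both ways: it was at 18.4 ± 0.04 CPM in control, rose to 30.9 ± 0.7 in E8-cGScm (adjusted p = 7.68e-08) and 54.1 ± 0.5 in E8-cDRGcm (2.11e-17), and fell to 6.17 ± 1.29 in E15.5-mGScm (3.96e-11). TLR2, a receptor for bacterial lipopeptides, rose in E15.5-mGScm, from 1.90 ± 0.55 to 14.7 ± 0.3 CPM (adjusted p = 2.13e-13). TNFRSF1B, the second TNF receptor, rose in E8-cGScm (log2 fold change 1.25, adjusted p = 0.000411) and E8-cDRGcm (1.64, 1.59e-06), and had -0.75 (adjusted p = 0.158) in E15.5-mGScm.

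All 14 kinase genes of the pathway were tested, with 1 called higher and 1 lower in E8-cGScm, 2 higher and 2 lower in E8-cDRGcm, and 2 higher and 0 lower in E15.5-mGScm. The shares were 7.14% each way in E8-cGScm, 14.3% each way in E8-cDRGcm, and 14.3% and 0% in E15.5-mGScm. They stand beside the shares of all tested genes given above for the members. With so few calls, the shares of the kinases are set by 1 or 2 genes. MAP3K8, a kinase held by the p105 product of NFKB1, rose from 0.476 ± 0.301 to 7.85 ± 0.05 CPM in E15.5-mGScm (adjusted p = 6.35e-12). Smaller rises were called in E8-cGScm (1.24 ± 0.07 CPM, adjusted p = 0.0222) and E8-cDRGcm (1.18 ± 0.51 CPM, adjusted p = 0.0192). These smaller rises rest on few reads: 9 and 4 in control, 16 and 17 in E8-cGScm, and 11 and 21 in E8-cDRGcm. IKBKE, an IκB kinase relative, fell in E8-cDRGcm (log2 fold change -2.03, adjusted p = 5.51e-10) and rose in E15.5-mGScm (1.17, 1.21e-07). RIPK2, the kinase downstream of NOD receptors, rose in E8-cDRGcm (0.78, adjusted p = 1.6e-08). RIPK1 was lower in both chick media (-0.64 and -0.59, adjusted p = 0.0078 and 0.00769) and was at -0.00 in E15.5-mGScm (0.993).

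Of 22 adaptors and ubiquitin ligases, 20 were tested. In E8-cGScm 1 was called higher and 1 lower (5% each way), beside 4.73% and 3.86% of all tested genes. In E8-cDRGcm 3 were called higher and 2 lower (15% and 10%), beside 9.81% and 10.9%. In E15.5-mGScm 3 were called higher and 0 lower (15% and 0%), beside 6.65% and 7.27%. The counts in the chick media were thus near the shares of all tested genes. BIRC3, a ubiquitin ligase that restrains the NFKB2 branch, fell from 3.79 ± 0.15 CPM in control to 2.14 ± 0.26 in E8-cGScm (adjusted p = 0.00775) and 1.48 ± 0.34 in E8-cDRGcm (4.35e-05), and rose to 29.2 ± 1.8 in E15.5-mGScm (1.3e-17). The sign of its difference in each medium was that of NFKB1. IRAK2 rose in E15.5-mGScm (log2 fold change 2.62, adjusted p = 4.68e-07). RBCK1, a part of the linear ubiquitin ligase, rose in E8-cGScm (0.76, adjusted p = 9.98e-11) and E8-cDRGcm (1.43, 1.32e-19) and was at 0.08 in E15.5-mGScm (0.465). TICAM1, the TLR3 adaptor, rose in E8-cDRGcm (0.66, adjusted p = 9.52e-06) and E15.5-mGScm (0.63, 0.000112).

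Among 15 other IκB proteins and inhibitors, 13 were tested. In E8-cGScm 0 were called, in E8-cDRGcm 1 was called higher and 1 lower, and in E15.5-mGScm 3 were called higher and 0 lower. The share in E8-cDRGcm was 7.69% each way, below those of all tested genes (9.81% and 10.9%). In E15.5-mGScm 23.1% were called higher, beside 6.65% of all tested genes. NFKBIZ, an inducible nuclear IκB, rose from 4.09 ± 0.81 to 40.3 ± 2.6 CPM in E15.5-mGScm (adjusted p = 1.78e-20) and to 6.22 ± 0.61 in E8-cDRGcm (0.00791). NFKBID, another nuclear IκB, rose in E15.5-mGScm (log2 fold change 1.41, adjusted p = 1.72e-08), as did CYLD, a deubiquitinase that limits the pathway (0.97, 2.06e-13). PDLIM2, which promotes the loss of nuclear RELA, fell in E8-cDRGcm (-0.79, adjusted p = 0.0333). Its difference was of similar size but not called in E8-cGScm (-0.62, adjusted p = 0.121) and E15.5-mGScm (-0.73, adjusted p = 0.0975).

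Of 34 NF-κB target genes, 14 were tested, 19 had too few reads and 1 had no matched identifier. In E8-cGScm and in E8-cDRGcm, 1 was called higher and 1 lower (7.14% each way). All tested genes had 4.73% and 3.86% in E8-cGScm, and 9.81% and 10.9% in E8-cDRGcm. In E15.5-mGScm 11 were called higher and 0 lower, beside 6.65% and 7.27% of all tested genes. Of these 11, 7 passed the filter only through the E15.5-mGScm libraries (C3, CCL2, CXCL10, ICAM1, IL32, PLAU and VCAM1). Of the 7 that passed without them, 4 were called higher. The median log2 fold change of these 7 was -0.17 in E8-cGScm, 0.09 in E8-cDRGcm and 0.81 in E15.5-mGScm. The 4 genes, named after their values were seen, were TNC, IRF1, CSF1 and CD83. The others, CFLAR, BCL2L1 and IFNGR2, were not called in E15.5-mGScm. Because the 4 were picked by their values, no p is printed for them. TNC, the matrix protein tenascin-C, was at 49.1 ± 2.2 CPM in control and 20.0 ± 3.1 in E8-cGScm. It was at 12.0 ± 1.4 CPM in E8-cDRGcm and 159 ± 14 in E15.5-mGScm. IRF1, an interferon-regulated transcription factor, had a log2 fold change of 1.06 in E8-cDRGcm and 1.63 in E15.5-mGScm. For the genes that entered only through E15.5-mGScm, values are given without a test, since the filter had required a high level there. ICAM1, an adhesion molecule for leukocytes, had 0 reads in control and 32.0 ± 0.2 CPM in E15.5-mGScm. This was at least 150.1-fold higher against the floor per library, taken on the TMM-scaled library sizes. The chemokine gene CCL2 was at 0.0765 ± 0.1081 CPM in control and 26.7 ± 0.3 in E15.5-mGScm, a ratio of summed reads of 378 with an exact 95% counting interval of 104 to 3127. VCAM1, another adhesion molecule, was at 7.61 ± 0.07 CPM in E15.5-mGScm (ratio 215, interval 37.9 to 8568). PLAU, the urokinase gene, was at 0.148 ± 0.116 CPM in control and 4.27 ± 1.03 in E15.5-mGScm. Among targets known from immune cells and endothelium, IL6 and SELE had 0 reads in every library, as did CSF2 and BCL2A1. In all, 10 of the 34 targets had 0 reads in every library, among them TAP1, PSMB9, IER3 and CCL5, named above. In E15.5-mGScm, CXCL1 had 1 and 2 reads, CXCL2 6 and 3, CXCL3 1 and 0, CXCL8 0 and 5, and CCL20 1 and 3.

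**Figure D4:**
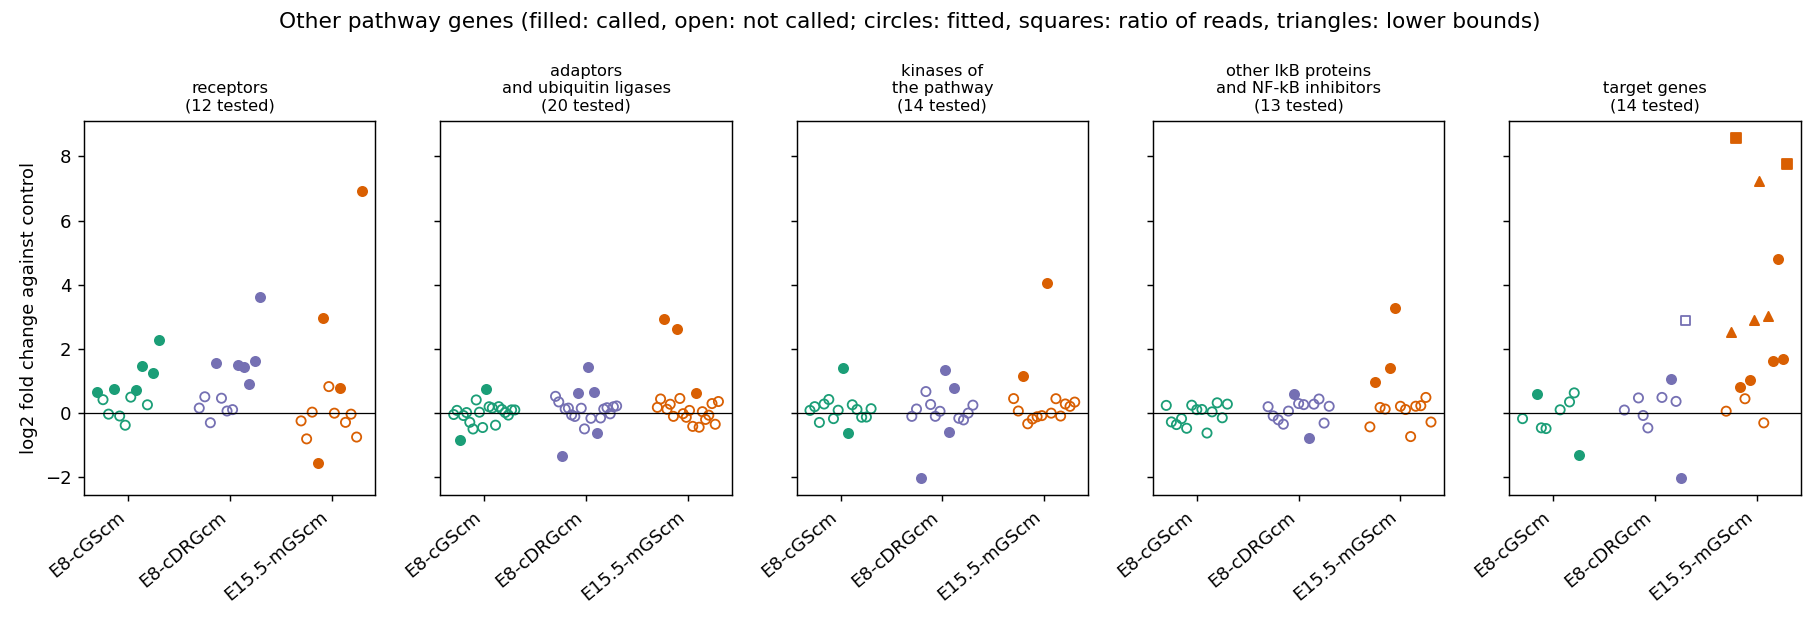
Log2 fold change against control (y axis) of the tested genes in 5 pathway lists, by medium (x axis), 1 point per gene in alphabetical order. Filled points were called. Squares are ratios of summed reads, triangles mark the least fold change that a floor of 3 reads allows, and genes at or under the floor in both groups are left out. The target genes reach up to a ratio of 378 (CCL2) in E15.5-mGScm, where 11 of 14 were called higher, 7 of them genes that passed the filter only through that medium.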

How the data were processed

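Per the labels and the methods of the study, libraries kept the strand of the total RNA (50 ng) and were read from one end over 75 bp. The submitters' processing notes name bcl2fastq 2.17.1.14, cutadapt 1.9.1, TopHat2 2.1.0 and HTSeq 0.11.3. The genome is hg19 in the methods and GRCh38 (hg38) in those notes, and the table carries no coordinates. The authors deposited raw counts per Ensembl gene and library, with no normalization. Each of the 8 columns was matched to its library by name.

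Symbols and exonic lengths came from GENCODE mapped to GRCh37 (58611 of 60676 identifiers matched), gene positions and promoters from RefSeq on GRCh38.p14. Counts were scaled by TMM, filtered with filterByExpr and tested with edgeR 4.0.16 in R 4.3.3 (robust quasi-likelihood fit, 1 model of 4 groups), and the procedure was tested on simulated data. Intervals of fold changes are 95%. Replicate numbers did not pair the libraries (correlation of deviations -0.0437 to 0.042). No pair of replicates agreed within sampling noise (chi-square per gene 1.81 to 3.92).

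The 10 genes, the pathway lists and the marker lists were chosen with earlier results of these data known. Up to 4 genes per pathway list were named, those with the largest absolute log2 fold change against control among called genes with a mean of at least 1 CPM. Outside this rule, the target genes called higher in E15.5-mGScm that passed the filter without its libraries were also named, after their values were seen. The genes most like NFKB2 and NFKBIA were the 5 with the highest Pearson correlation. Alternatives were DESeq2 1.42.0, other size factors, other filters, a replicate block, only the libraries compared, each library left out, and, added after seeing the data, thinning and canonical transcript lengths.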

Additional observations from a re-analysis of the deposited data

Results flagged for a closer look

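NFKB1 moved in opposite directions in 2 media. It was called lower than control in E8-cGScm (log2 fold change -0.62) and higher in E15.5-mGScm (1.14), and the difference between these media, from the same edgeR fit, was 1.76 (SE 0.08, 95% interval 1.60 to 1.92). The comparisons with control share its libraries. The lower level in E8-cGScm was not called without control replicate 2, without E8-cGScm replicate 1 or after thinning.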

How the results depend on the processing

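Of the 10 genes, none changed direction among those called under any of the 15 alternatives. DESeq2, other size factors, a looser filter and the replicate block changed no call of a member. The filter of at least 10 counts in every library removed TNFAIP3 and left 7, 7 and 5 members called in E15.5-mGScm against control, E8-cGScm and E8-cDRGcm, with the other calls as before. The replicate block left 2, 3 and 8 members called against control. With adjusted p alone, without the limit of 1.5-fold, 5 of the 9 tested members were called in E8-cGScm and 5 in E8-cDRGcm against control. Of all 16680 tested genes, 5213 and 8261 were called in these comparisons by the same rule. Leaving out single libraries gave 1 to 2 members called in E8-cGScm (1 without control replicate 2 or without E8-cGScm replicate 1), and thinning, chosen after seeing the data, gave 1; the call lost was that of NFKB1. The difference of BCL3 between E15.5-mGScm and E8-cDRGcm was called without E8-cDRGcm replicate 1 or without E15.5-mGScm replicate 2.

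All genes called with adjusted p alone numbered 5213 (E8-cGScm), 8261 (E8-cDRGcm) and 6305 (E15.5-mGScm) against control, 5037 between the chick media, and 8304 and 8767 for E15.5-mGScm against E8-cGScm and E8-cDRGcm. With DESeq2 they were 952 in E8-cGScm against control and 752 between the chick media, compared with 1433 and 1249 in edgeR. Other pathway genes called with adjusted p alone numbered 22, 38 and 41 against control, 22 between the chick media and 50 for E15.5-mGScm against E8-cGScm. DESeq2 gave 7 in E8-cGScm against control. With at least 10 counts in every library they were 13, 17 and 16 for E15.5-mGScm against control, E8-cGScm and E8-cDRGcm, since that filter removes genes with few reads outside E15.5-mGScm. The replicate block gave 1414, 3444 and 2288 genes called against control.

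With 2 libraries a group, differences of the size of RELA's cannot be resolved, and genes under about 3 counts in a library cannot be ordered. Floors and the intervals of ratios of summed reads cover counting error only, whereas the intervals of fitted fold changes include the spread between libraries.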
